A study of Mus musculus with 6 samples.

Results

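The p53 target genes described here are 10 genes chosen by name as direct transcriptional targets of the tumour suppressor p53: Cdkn1a, Mdm2, Ccng1, Bax, Phlda3, Eda2r, Gdf15, Psrc1, Zmat3 and Trp53inp1. All 10 were found among the 25102 genes of the liver expression table. The study compared 3 liver libraries of male C57BL/6J mice treated with diethylnitrosamine and carbon tetrachloride (DEN+CCl4) with 3 control liver libraries. Strain and sex were the same in both groups, and each library is called a liver below. Mice were 2 weeks old at the start; treated mice were injected once with DEN at 1 mg/kg and, some 6 weeks after that, with CCl4 at 0.2 mL/kg, 2 times a week over at most 14 weeks. What the control mice were injected with, if anything, and whether a treated library came from tumour or from the liver around it, are not stated in the sources used here. Replicates are told apart by a number alone, so the spread between them may be technical. P-values and standard errors (SE) of the main test, limma, rest mainly on a variance shared by genes of like level. They reflect a gene's own spread between livers only in part. Expression is in FPKM, fragments per gene length scaled to the fragments mapped in each library, which is a level per length and lets genes be compared.

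The protein p53 is a transcription factor that is kept scarce by the ubiquitin ligase Mdm2 and accumulates after DNA damage and other stress. It binds paired decamers near its target genes, and those targets stop the cell cycle, promote apoptosis, repair DNA or feed back on p53 itself. In liver, DEN is activated in hepatocytes to an agent that alkylates DNA, and CCl4 injures hepatocytes and provokes regeneration and scarring. Most regulation of p53 is at the level of the protein, so the transcript of its gene, Trp53, need not move with its targets.

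The promoters are shown first because p53 acts on its targets through sites in the DNA, in promoters or in introns. RefSeq promoter windows on GRCm38.p6, which reach from 250 bases before a start site to 50 bases after it, were matched by symbol for 8 of the 10 genes. They were searched for the p53 consensus site, by its name: a pair of decamers, each with CNNG at its centre, up to 13 bases apart. The consensus is palindromic, so both strands are read at once, and decamers of a pair do not overlap. With at most 2 mismatches in all, 3 of the 8 genes held a site, Cdkn1a, Ccng1 and Bax, as did 4.71% of all 27025 genes (4.09% of all 32851 windows). The stretches below run from 240 to 37 bases before the start site, 5′ to 3′, with the matching decamers in capitals. They lie at chr17:29090739-29090942 (plus strand) for Cdkn1a, at chr11:40755323-40755526 (minus strand) for Ccng1 and at chr7:45466935-45467138 (minus strand) for Bax.
Cdkn1a: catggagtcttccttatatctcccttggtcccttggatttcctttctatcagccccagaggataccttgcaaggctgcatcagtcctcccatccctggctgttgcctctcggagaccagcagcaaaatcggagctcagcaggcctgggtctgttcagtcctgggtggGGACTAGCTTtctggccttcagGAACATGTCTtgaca
Ccng1: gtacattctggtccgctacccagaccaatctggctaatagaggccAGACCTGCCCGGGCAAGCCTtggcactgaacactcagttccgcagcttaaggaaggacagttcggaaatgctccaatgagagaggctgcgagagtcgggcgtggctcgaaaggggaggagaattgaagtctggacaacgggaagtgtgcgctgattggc
Bax: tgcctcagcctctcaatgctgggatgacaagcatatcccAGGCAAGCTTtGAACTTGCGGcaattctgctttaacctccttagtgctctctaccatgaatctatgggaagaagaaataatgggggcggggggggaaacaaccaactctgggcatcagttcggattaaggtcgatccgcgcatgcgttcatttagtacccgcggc
In the Cdkn1a window nearest the GENCODE start both decamers matched without a mismatch, 12 bases apart, a match found in 0.0731% of all windows. Cdkn1a had another window, at chr17:29093519-29093818, where the best pair had 5 mismatches. In Ccng1 the decamers adjoined with 1 mismatch, and in Bax they lay 1 base apart with 2 mismatches. At most 1 mismatch was found in 0.627% of all windows. The next stretches are those of the other genes called higher in DEN+CCl4 liver, Psrc1 at chr3:108383598-108383801 and Phlda3 at chr1:135765845-135766048, both on the plus strand.
Psrc1: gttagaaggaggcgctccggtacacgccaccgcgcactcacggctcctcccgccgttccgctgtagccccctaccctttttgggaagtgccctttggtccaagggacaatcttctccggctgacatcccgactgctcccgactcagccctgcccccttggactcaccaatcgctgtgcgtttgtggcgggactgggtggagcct
Phlda3: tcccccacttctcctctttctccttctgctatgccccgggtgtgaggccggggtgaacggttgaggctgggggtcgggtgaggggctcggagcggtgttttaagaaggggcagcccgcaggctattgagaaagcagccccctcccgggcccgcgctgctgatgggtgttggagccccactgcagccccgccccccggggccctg
The best pair of decamers in these windows had 7 mismatches for Psrc1 and 5 for Phlda3, which says only that these letters are not in this window. Mdm2 had 4, Gdf15 4 in one of its windows and 5 in the other, and Eda2r 6. A match to a consensus is a description of the sequence and was not tested for binding.

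Libraries differed in ways that bear on every value below. In DEN+CCl4 replicate 3 the 37 transcripts of the mitochondrial genome took 64.2% of all FPKM, against 36.9% and 40.6% in DEN+CCl4 replicates 1 and 2 and 26.6% to 43.0% in controls. The median level of tested genes was 1.19 FPKM in DEN+CCl4 replicate 3, against 3.43 to 4.46 FPKM elsewhere, and 83.9% of tested genes lay below all 3 controls in it. DEN+CCl4 replicate 1 resembled the controls: across tested genes its Pearson's r with them was 0.948 to 0.962, against 0.823 to 0.870 for replicate 2 and 0.744 to 0.779 for replicate 3 (genes are not independent replicates). Values are therefore given as deposited and, where it matters, after median-ratio scaling, in which a library is scaled by the typical ratio of its genes to their geometric means. The table holds no counts, so read depth is unknown.

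Among the 10 genes, Psrc1, Cdkn1a and Phlda3 rose in DEN+CCl4 liver and none fell, by limma on log2(FPKM + 1) with p-values adjusted over the 8528 genes that averaged 1 FPKM or more. By the same test 0.833% of tested genes were higher and 0.645% lower. In all 3 genes each treated library lay above each control, with replicate 1 the closest to the controls. Mdm2, Ccng1, Bax, Gdf15 and Trp53inp1 did not pass, and Eda2r and Zmat3 were too low to be tested. All 3 genes that rose had a control mean under 1 FPKM and so passed the filter only through the treated livers, where they had to be high. Of the 424 tested genes with such a control mean 15.6% were called higher, against 0.0617% of the 8104 others. The number of called genes among those that passed is therefore no evidence about p53 targets as a group. Without DEN+CCl4 replicate 3, and likewise after median-ratio scaling, limma called 0 genes higher (522 and 468 at an unadjusted p under 0.05). With array weights, which let libraries count unequally, Psrc1, Cdkn1a and Phlda3 differed by 0.92, 0.99 and 0.58 on the log2 scale and none of the 3 passed. Without the trend of variance with level, their SEs were 0.87, 0.64 and 0.55, against 0.49, 0.49 and 0.43 with it. None of the 3 passed then (limma adjusted p = 0.795, 0.795 and 0.817). In whole liver, more cells of a type and more RNA per cell cannot be told apart.

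**Figure D1:**
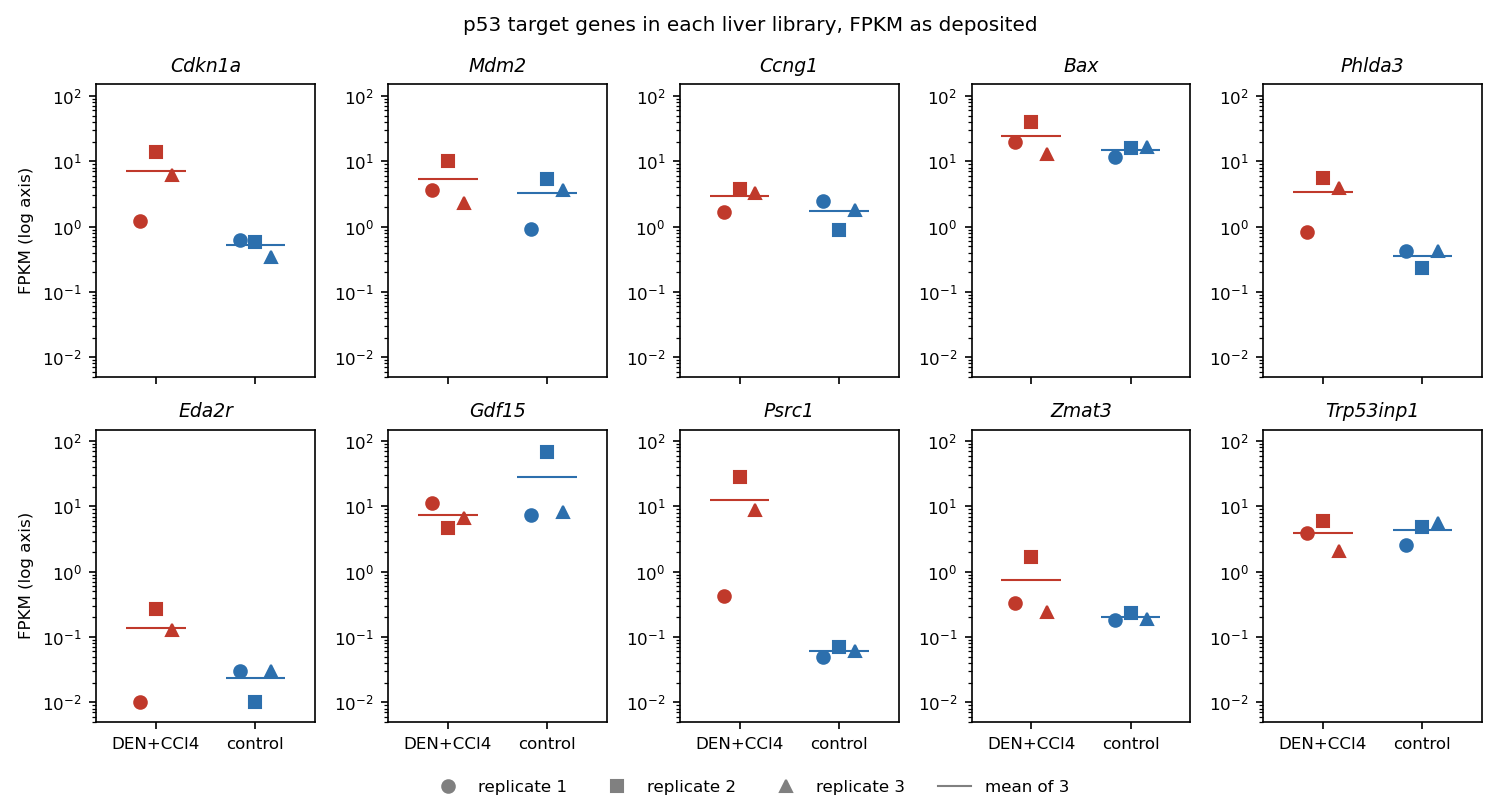
FPKM as deposited (log axis) of the 10 p53 target genes in each of the 3 DEN+CCl4 and 3 control liver libraries. Symbols mark the replicate and lines the mean of 3. Psrc1, Cdkn1a, Phlda3 and Zmat3 lie above all controls in each treated liver, and the widest gap is that of Psrc1, at 0.42 to 28.1 FPKM in DEN+CCl4 livers and 0.05 to 0.07 FPKM in controls.

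**Figure D2:**
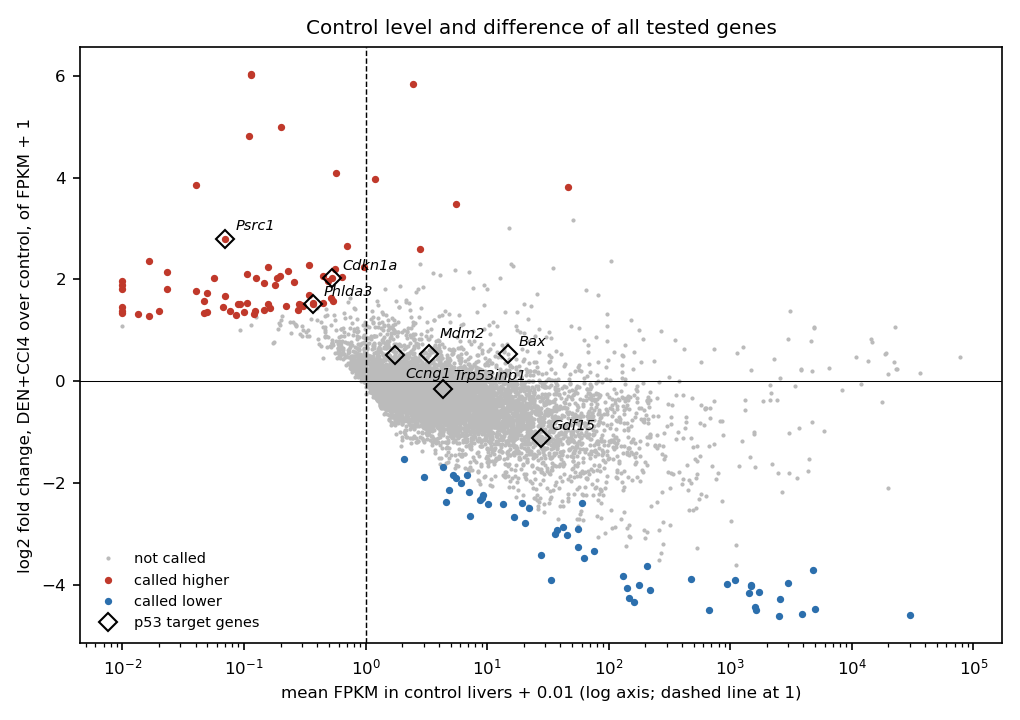
Log2 fold change, DEN+CCl4 over control, of FPKM + 1 against the mean control FPKM plus 0.01 (log axis) for the 8528 tested genes; diamonds are the 8 tested p53 targets. Genes left of the dashed line at 1 FPKM reach the test only when they are high in treated livers, and 66 of the 71 genes called higher lie there, Psrc1, Cdkn1a and Phlda3 among them.

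Of the 3 targets that act on the cell cycle, Psrc1 and Cdkn1a rose and Ccng1 did not pass. Psrc1 (ENSMUSG00000068744, chromosome 3, 108383839 to 108388231, plus strand, GENCODE M21 on GRCm38) encodes a microtubule-binding protein of the mitotic spindle. It read 0.42, 28.1 and 8.79 FPKM across DEN+CCl4 livers 1 to 3, against 0.05, 0.07 and 0.06 FPKM in controls. The groups did not overlap, and even the lowest treated library was several times the highest control. It differed by 2.80 ± 0.49 on the log2 scale (SE; limma adjusted p = 3.89e-05), a value that the pseudocount of 1 compresses for so low a gene. Median-ratio scaling gave 3.10 ± 1.02 (SE; limma adjusted p = 0.453). Without DEN+CCl4 replicate 3 its limma adjusted p was 0.608, and without control replicate 2 it was 0.0773. Without DEN+CCl4 replicate 2 the difference was 1.81 on the log2 scale, still called (limma adjusted p = 0.000194).

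Cdkn1a (ENSMUSG00000023067, chromosome 17, 29090976 to 29100727, plus strand) encodes p21, the inhibitor of cyclin-dependent kinases that carries out the cell cycle arrest by p53. It read 1.22, 13.7 and 6.19 FPKM across DEN+CCl4 livers 1 to 3, against 0.62, 0.59 and 0.34 FPKM in controls. The groups did not overlap, treated replicate 1 was the nearest to the controls, and replicates 2 and 3 stood well clear. Cdkn1a differed by 2.03 ± 0.49 on the log2 scale (SE; limma adjusted p = 0.00882), and 2.36 ± 0.74 after median-ratio scaling (limma adjusted p = 0.453). Without DEN+CCl4 replicate 3 the limma adjusted p was 0.608. It also missed the threshold without DEN+CCl4 replicate 2 (limma adjusted p = 0.0957) and without control replicates 1, 2 and 3 (limma adjusted p = 0.186, 0.247 and 0.417). A gene on the other strand, AC167363.2, overlaps Cdkn1a, and without stated strand its reads cannot be told apart.

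Ccng1 (chromosome 11, 40748552 to 40755311), which encodes cyclin G1, a partner of a phosphatase that activates Mdm2, did not pass. It read 1.66, 3.82 and 3.23 FPKM across DEN+CCl4 livers 1 to 3, against 2.50, 0.90 and 1.79 FPKM in controls. Replicates 2 and 3 lay above all controls and replicate 1 among them. Its log2 fold change of 0.52 had a 95% interval of -0.45 to 1.48 (limma adjusted p = 0.996), and after median-ratio scaling it was 0.90 (-0.31 to 2.11).

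Of the genes that feed back on p53 or on survival signalling, Phlda3 rose. Phlda3 (ENSMUSG00000041801, chromosome 1, 135766119 to 135769136, plus strand) encodes a small protein with a pleckstrin homology domain that keeps the kinase Akt off the membrane. It read 0.82, 5.56 and 3.94 FPKM across DEN+CCl4 livers 1 to 3, against 0.43, 0.23 and 0.42 FPKM in controls. All treated libraries lay above all controls, replicates 2 and 3 by far the more. Phlda3 differed by 1.52 ± 0.43 on the log2 scale (SE; limma adjusted p = 0.0336), and 1.84 ± 0.63 after median-ratio scaling (limma adjusted p = 0.453). Without DEN+CCl4 replicate 3 the limma adjusted p was 0.608, and without DEN+CCl4 replicate 2 it was 0.152. Without control replicates 1, 2 and 3 it was 0.349, 0.530 and 0.513. With the replicate number as a block in the model it was 0.0620.

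Mdm2 (chromosome 10, 117688875 to 117710758), the ligase that degrades p53 and is itself a target of p53, read 3.67, 10.2 and 2.27 FPKM across DEN+CCl4 livers 1 to 3, against 0.93, 5.36 and 3.61 FPKM in controls. Only replicate 2 lay above all controls, and the controls themselves ranged widely. The log2 fold change was 0.53 with a 95% interval of -0.60 to 1.67 (limma adjusted p = 0.996). It was 0.026 without DEN+CCl4 replicate 2 and 0.037 without control replicate 1. After median-ratio scaling it was 0.87 (-0.24 to 1.99), with replicates 2 and 3 both above all controls. Trp53inp1 (chromosome 4, 11156431 to 11174379), a stress-induced cofactor of p53 that also acts in autophagy, read 3.88, 5.89 and 2.05 FPKM across DEN+CCl4 livers 1 to 3, against 2.56, 4.91 and 5.59 FPKM in controls. Its groups overlapped. Its log2 fold change was -0.15 (-1.29 to 1.00) as deposited and 0.22 (-0.52 to 0.96) after median-ratio scaling, so its direction changed with the scaling. Zmat3 (chromosome 3, 32334792 to 32366014), a zinc finger protein that binds RNA and regulates splicing, read 0.33, 1.66 and 0.24 FPKM across DEN+CCl4 livers 1 to 3, against 0.18, 0.23 and 0.19 FPKM in controls. Its groups did not overlap, though replicate 3 cleared the highest control by only 0.01 FPKM, and its mean was under the filter.

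Of the targets in cell death, Bax was tested and Eda2r was too low. Bax (chromosome 7, 45461697 to 45466898), which permeabilises the outer mitochondrial membrane, had the highest treated level of the 10 genes. It read 19.9, 39.6 and 12.7 FPKM across DEN+CCl4 livers 1 to 3, against 11.6, 16.1 and 16.7 FPKM in controls. Before scaling, replicates 1 and 2 lay above all controls and replicate 3 within their range. The log2 fold change was 0.54 (-1.09 to 2.16; limma adjusted p = 0.996). After median-ratio scaling the libraries read 15.6, 28.9 and 35.7, against 9.94, 13.9 and 13.3 in controls, and no longer overlapped. The log2 fold change was then 0.99 (0.08 to 1.90), still with limma adjusted p = 0.453. The predicted gene Gm45808 overlaps Bax on the same strand, so some reads could belong to either. Eda2r (X chromosome, 97333840 to 97377216), the receptor for ectodysplasin A2, read 0.01, 0.27 and 0.13 FPKM across DEN+CCl4 livers 1 to 3, against 0.03, 0.01 and 0.03 FPKM in controls. Replicates 2 and 3 were above all controls, at levels close to the 0.01 resolution of the table, and replicate 1 was not.

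Gdf15 (chromosome 8, 70629393 to 70632456), the secreted growth differentiation factor that lowers appetite through a brainstem receptor, had the lowest ratio of treated to control mean of the 10 genes. It read 11.1, 4.74 and 6.64 FPKM across DEN+CCl4 livers 1 to 3, against 7.45, 67.5 and 8.26 FPKM in controls. Control replicate 2 was far above every other library, and treated replicate 1 exceeded both other controls. The log2 fold change was -1.11 (-2.60 to 0.38; limma adjusted p = 0.923), and -0.13 without control replicate 2. With that control left out after median-ratio scaling it was 0.34, so the direction rests on 1 library.

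**Figure D3:**
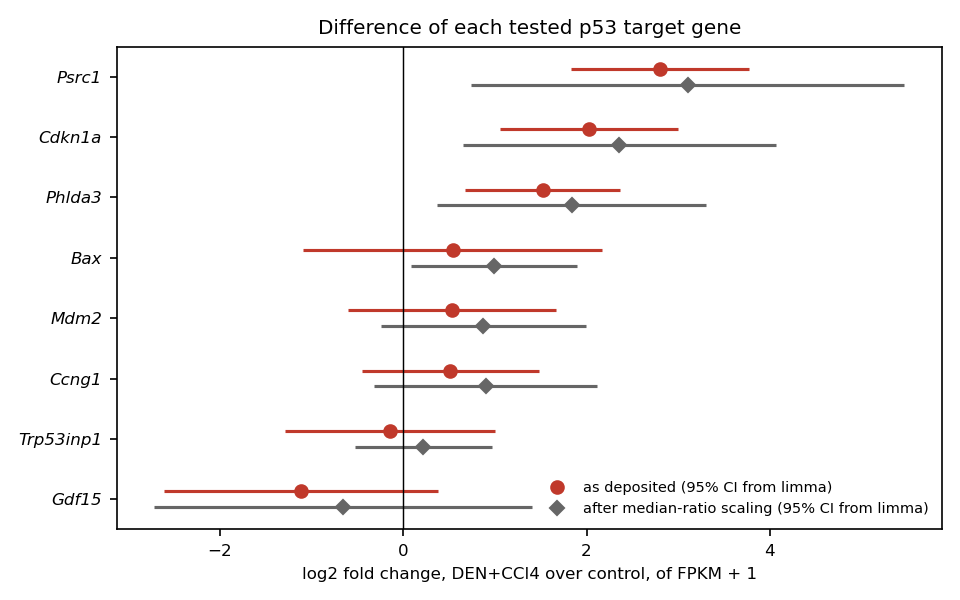
Log2 fold change, DEN+CCl4 over control, of FPKM + 1 for the 8 tested p53 targets, with 95% intervals from limma, as deposited (circles) and after median-ratio scaling (diamonds). Intervals of Psrc1, Cdkn1a and Phlda3 lie above 0 in both scalings, that of Bax only after scaling (0.08 to 1.90), and those of the other 4 genes include 0.

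The 10 genes also differed in which treated library was highest, and that order depended on the scaling. As deposited, DEN+CCl4 replicate 2 was the highest treated library in 9 of the 10 genes, all but Gdf15, as it was in 54.9% of tested genes. After median-ratio scaling replicate 3 was highest in 8 of the 10 and replicate 1 was lowest in 9. In all tested genes these shares were 38.0% and 32.9%. In DEN+CCl4 livers 1 to 3 as deposited, 5, 9 and 6 of the 10 genes exceeded all 3 controls, against 25.8%, 45.1% and 5.66% of tested genes. After scaling the counts were 5, 8 and 9, against 18.2%, 34.1% and 37.3% of tested genes. These shares are of tested genes, but Eda2r and Zmat3 were not tested. Psrc1, Cdkn1a and Phlda3 passed the filter only through the treated livers. The 10 genes were also chosen with earlier results of these data known, so the counts are no evidence about p53 targets as a group. In replicate 1 the margins were small: the median of the 10 genes was 0.15 above the control mean there on the scaled log2 scale. The medians were 1.05 and 1.30 in replicates 2 and 3, where the median of all tested genes was 0.02 and -0.02.

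As deposited, 4 of the 10 genes were above all controls in every treated library (Cdkn1a, Phlda3, Psrc1 and Zmat3), and 5 after scaling, with Bax added. Of all 24933 genes above 0 in at least 1 library, 3.83% did so as deposited, and of tested genes with a control mean under 1 FPKM 32.1%. No such share was computed after scaling, so the count of 5 there has no background to be read against. An exact two-sided permutation test of 3 against 3 libraries cannot go below p = 0.1, the value it gave for each of these 4 genes. With no filter, limma called 0% of all genes higher, and unadjusted p-values were 0.0217 for Psrc1, 0.0154 for Cdkn1a and 0.0153 for Phlda3. After median-ratio scaling limma called 0% of genes in either direction. At an unadjusted p under 0.05, 5.49% of genes were then higher, and with them 4 members: Cdkn1a (0.0133), Psrc1 (0.0167), Phlda3 (0.0204) and Bax (0.0364). Leaving out 1 library after scaling gave limma adjusted p of 0.538 to 0.984 for Psrc1, Cdkn1a and Phlda3, except without DEN+CCl4 replicate 1, where they were 0.00121, 0.00416 and 0.0133. In that setting 294 of all 8528 genes were called higher and 362 lower, and 0 in the other 5.

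**Figure D4:**
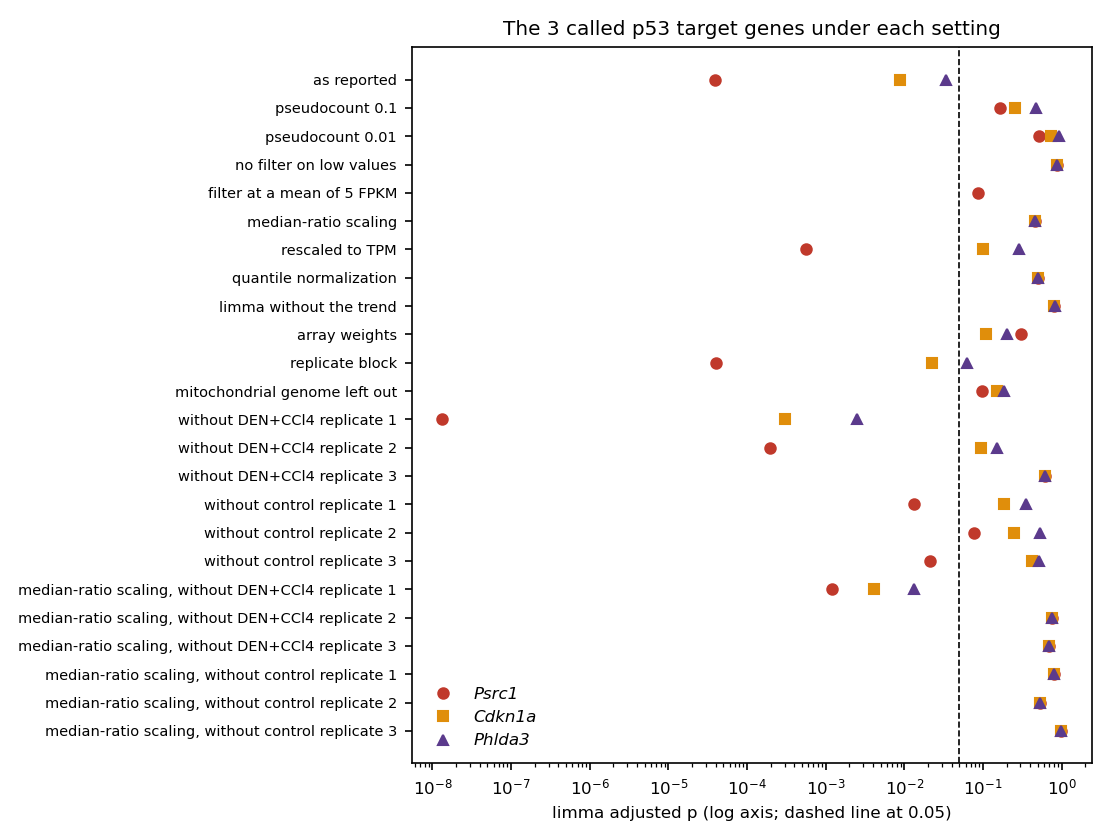
Limma adjusted p (log axis, dashed line at 0.05) of Psrc1, Cdkn1a and Phlda3 as reported and under each alternative setting. All 3 genes pass as reported and in both settings without DEN+CCl4 replicate 1, and Psrc1 passes in 8 of the 24 settings shown.

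Other genes of the p53 response were taken from a list of 36 further targets, all found in the table. Of the 25 tested, 0 rose and 0 fell by limma. At an unadjusted p under 0.05, 0 were higher and 1 lower, Dcxr, beside 216 and 432 of all 8528 tested genes. Their median log2 fold change was -0.33, beside -0.27 for all tested genes. After median-ratio scaling these medians were 0.02 and 0.01. The most abundant were Ephx1, microsomal epoxide hydrolase, at 170, 92.7 and 29.1 FPKM across DEN+CCl4 livers 1 to 3, against 176, 89.0 and 190 FPKM in controls, and Rps27l, a ribosomal protein paralog. Rps27l read 76.3, 63.9 and 20.1 FPKM across DEN+CCl4 livers 1 to 3, against 96.6, 70.7 and 107 FPKM in controls. In both genes the groups overlapped and replicate 3 was the lowest library. All treated libraries were above all controls for Pmaip1 (Noxa), Tnfrsf10b (a death receptor), Ak1 (adenylate kinase) and Apaf1 (the apoptosome scaffold), which were named after their values were seen. These are 4 of 36 genes, beside 3.83% of all genes above 0 in a library. After median-ratio scaling there were 5, Tnfrsf10b and Ak1 again with Xpc, Ptprv and Pvt1, and no share over all genes was computed there. None of the first 4 reached a mean of 1 FPKM: the highest, Tnfrsf10b, read 0.10, 1.42 and 0.19 FPKM in DEN+CCl4 livers and 0 to 0.08 FPKM in controls.

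A few other genes of the list are given as examples chosen after their values were seen. Btg2, an antiproliferative cofactor, read 4.12, 26.6 and 6.98 FPKM across DEN+CCl4 livers 1 to 3, against 2.88, 5.42 and 2.65 FPKM in controls. Aen, a nuclease of apoptosis, read 0.47, 7.04 and 2.32 FPKM in the treated livers, against 0.38, 1.77 and 1.77 FPKM in controls. Replicates 2 and 3 exceeded all controls in both genes and replicate 1 did not. Of the settings that scaled the libraries and left 1 out, only the one without DEN+CCl4 replicate 1 called any listed target, Btg2, Aen and Plk2 as higher and Dcxr as lower, among its 294 higher and 362 lower genes. Others went the opposite way in the means: Plk3, a stress kinase, read 72.8, 39.3 and 4.96 FPKM in DEN+CCl4 livers and 47.0, 91.4 and 75.8 FPKM in controls. The sugar reductase gene Dcxr read 52.0, 15.0 and 5.46 FPKM, against 77.3, 49.1 and 92.5 FPKM in controls. In the promoter windows, 4 of the 27 listed targets matched had a p53 site with at most 2 mismatches: Gadd45a, Pml, Rps27l and Sesn1, beside the 4.71% of all genes.

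**Figure D5:**
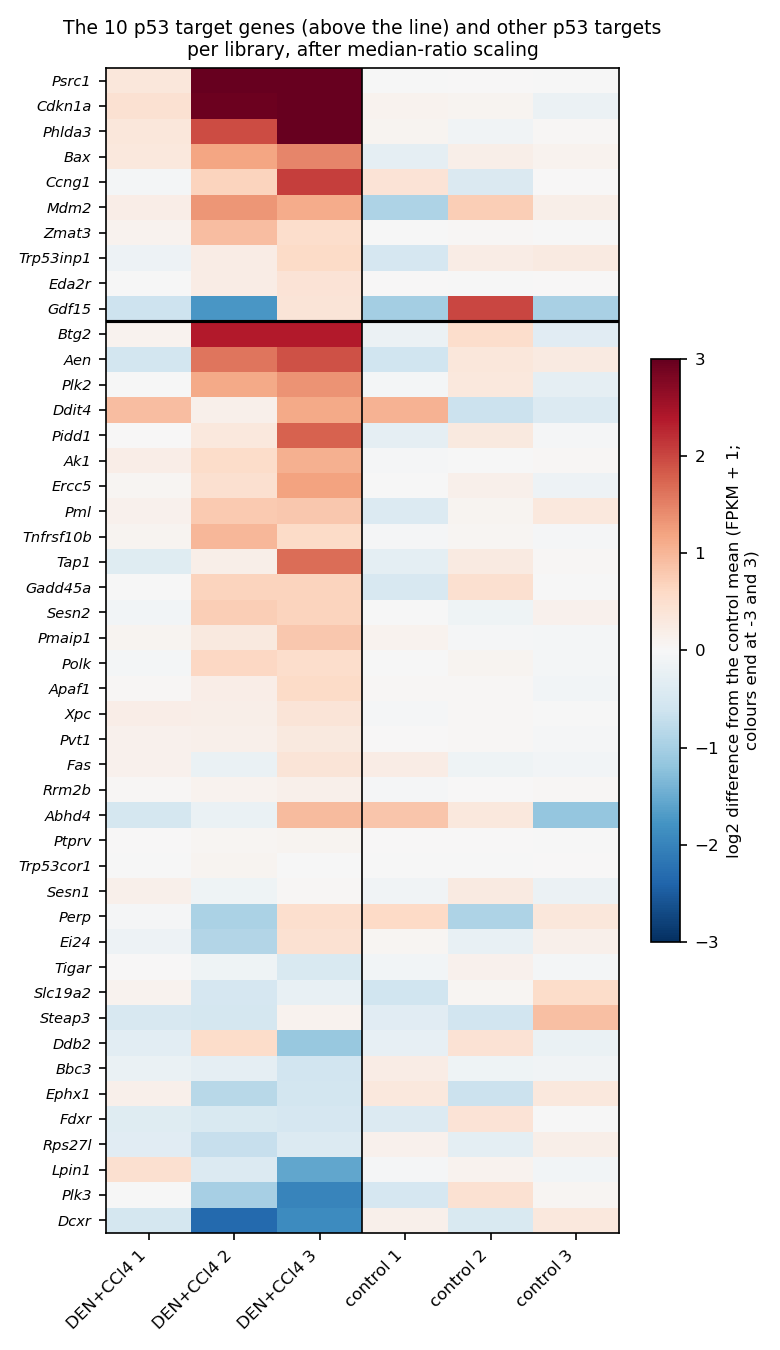
Log2 difference of FPKM + 1 from the control mean, after median-ratio scaling, for the 10 p53 targets (above the line) and the 36 other targets in each library; red is higher. Psrc1, Cdkn1a, Phlda3 and Btg2 are the darkest red in DEN+CCl4 replicates 2 and 3, Plk3 and Dcxr are blue there, and Gdf15 stands out in control replicate 2.

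The gene of p53 itself, Trp53, read 9.46, 15.2 and 2.03 FPKM across DEN+CCl4 livers 1 to 3, against 4.59, 8.20 and 7.53 FPKM in controls. The groups overlapped (log2 fold change 0.08, limma adjusted p = 0.998). Mdm4, a relative of Mdm2 that blocks p53's activation domain, read 5.26, 9.11 and 0.73 FPKM, against 3.05, 7.45 and 4.51 FPKM in controls. Among 18 genes for p53 and its regulators, 8 were tested, and 0 rose and 0 fell by limma (also 0 at an unadjusted p under 0.05). Kat5, an acetyltransferase that acts on p53, averaged 6.15 ± 3.36 FPKM in DEN+CCl4 livers and 5.73 ± 0.75 FPKM in controls (SD, n = 3 each). Cdkn2a, whose Arf product inhibits Mdm2, was named after its values were seen: it was listed at 0, 3.02 and 2.01 FPKM across DEN+CCl4 livers 1 to 3 and at 0.15, 0 and 0 FPKM in controls. It was too low to be tested, and was high in the same treated libraries as Psrc1 and Cdkn1a.

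Partners of the members were described from lists as well. Of the 16 cyclins, kinases and pocket proteins around p21, 8 were tested and 0 passed limma in either direction. At an unadjusted p under 0.05, 2 were higher, Ccnd1 and Ccnd3, as were 216 of all 8528 tested genes. Cdk4 read 8.81, 26.8 and 2.53 FPKM in DEN+CCl4 livers and 20.6, 10.1 and 26.6 FPKM in controls. Ccnd1, cyclin D1, read 1.78, 17.0 and 3.68 FPKM across DEN+CCl4 livers 1 to 3, against 1.52, 1.36 and 2.03 FPKM in controls (log2 fold change 1.23, limma adjusted p = 0.474). None of the 18 genes of mitosis and S phase reached a mean of 1 FPKM. Their means were higher in treated livers for 14 of the 18, but no such share was computed over genes this low. Of the 18, 7 lay above all controls in each treated library, as did 3.83% of all genes above 0. The most abundant, Ccnb2 and Plk1, averaged 0.86 ± 0.33 and 0.85 ± 0.63 FPKM in DEN+CCl4 livers and 0.55 ± 0.20 and 0.42 ± 0.33 FPKM in controls (SD, n = 3 each). Of 13 BCL2 family genes, the partners and opponents of Bax, 8 were tested and 0 passed limma (also 0 at an unadjusted p under 0.05). Mcl1, which guards mitochondria against Bax, read 16.9, 16.6 and 5.43 FPKM in DEN+CCl4 livers and 13.7, 13.8 and 10.8 FPKM in controls. Bcl2l1, which encodes Bcl-xL, averaged 10.4 ± 8.68 FPKM in DEN+CCl4 livers and 5.93 ± 0.37 FPKM in controls (SD, n = 3 each).

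Some inputs other than p53 reach the same promoters. Gdf15 is also a target of the integrated stress response, whose factors Atf4 and Ddit3 are made when translation is throttled. Of the 13 genes listed for it 9 were tested, 1 rose and 0 fell. Means were higher in treated livers for 12 of the 13, and for 2871 of the 8528 tested genes, though not all 13 were tested. The median log2 fold change of those tested was 0.63, beside 0.54 for the tested members and -0.27 for all tested genes. After median-ratio scaling these medians were 1.08, 0.94 and 0.01. Control means were under 1 FPKM in 3 of the 9 listed genes tested and 3 of the 8 members, beside 424 of all 8528. Such genes passed the filter only through the treated livers, which can raise a median, so these medians are no evidence about either list. The one that rose was Fgf21, a secreted metabolic hormone, at 0.57, 9.78 and 4.19 FPKM across DEN+CCl4 livers 1 to 3, against 0.05, 0.74 and 0.81 FPKM in controls (log2 fold change 1.58 ± 0.46 (SE), limma adjusted p = 0.0480). Its groups overlapped, with replicate 1 inside the control range, and it too had a control mean under 1 FPKM. Atf4 averaged 51.2 ± 33.5 FPKM in DEN+CCl4 livers and 44.6 ± 7.59 FPKM in controls, and Atf5 44.4 ± 18.1 and 32.7 ± 9.59 FPKM (SD, n = 3 each). Of the 11 genes listed as inputs to Cdkn1a that need no p53, 8 were tested and 0 passed limma. At an unadjusted p under 0.05, 1 was lower, Cebpb, as were 432 of all 8528 tested genes. Cebpa, a hepatocyte factor, averaged 28.3 ± 19.5 FPKM in DEN+CCl4 livers and 55.2 ± 4.02 FPKM in controls, and Cebpb 12.3 ± 13.5 and 39.8 ± 32.0 FPKM (SD, n = 3 each).

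The tissue label held in every library, since all 9 hepatocyte markers found in the table were above 0 in each. Their sum was 15233 to 78922 FPKM in DEN+CCl4 livers and 46025 to 75527 FPKM in controls. Marker sums of some other cells did not overlap between the groups. The 10 markers of stellate cells and myofibroblasts summed to 17.1 to 40.1 FPKM in DEN+CCl4 livers and 9.0 to 12.7 FPKM in controls. Of the 10, 6 were above all controls in each treated library (3.83% of all genes above 0), and 1, Lrat, was below them. Limma called 0, and Lox was listed at 0 in controls. At an unadjusted p under 0.05, 3 of the 6 tested were higher, as were 216 of all 8528 tested genes. The 6 neutrophil markers found summed to 8.69 to 23.6 FPKM in DEN+CCl4 livers and 2.84 to 8.09 FPKM in controls, but overlapped after median-ratio scaling (from 6.34 in DEN+CCl4 livers, up to 6.94 in controls). Of these S100a8 rose (limma adjusted p = 0.0336, and 0.462 after median-ratio scaling), a gene that also had a control mean under 1 FPKM and reached the test through the treated livers. The 8 T cell and NK cell markers summed to 4.18 to 5.85 FPKM in DEN+CCl4 livers and 2.71 to 3.48 FPKM in controls. Of these, 6 had a higher mean in treated livers, and Cd4 and Klrb1c a lower one. Among the 8528 tested genes 2871 had a higher mean, but most of the 8 markers were too low to be tested. Of the 8, 2 were above all controls in each treated library (3.83% of all genes above 0), and limma called 0 of the 2 tested. After median-ratio scaling the sums were 3.36 to 11.7 in DEN+CCl4 livers and 2.34 to 2.85 in controls. Sums as deposited overlapped for the 8 markers of bile duct cells (22.3 to 46.0 FPKM in DEN+CCl4 livers, 17.3 to 23.7 FPKM in controls), the 10 of macrophages (24.3 to 54.0 and 36.4 to 97.0 FPKM), the 8 of endothelium (12.7 to 48.3 and 19.8 to 31.8 FPKM) and the 7 of B cells (6.58 to 36.7 and 9.66 to 11.2 FPKM). After median-ratio scaling the B cell sums no longer did, at 18.5 to 26.8 in DEN+CCl4 livers and 7.67 to 9.67 in controls. The part of these cells in the levels of Psrc1, Cdkn1a and Phlda3 was not tested.

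Likeness to the members was measured by Pearson's r of log2(FPKM + 1) over the 6 libraries, among 3382 named genes with a group mean of at least 5 FPKM. Libraries share their scale, so these values are a description. The genes most like Cdkn1a were Itga3 (r = 0.998), Pea15a (0.993), Fhl3 (0.989), Aebp1 (0.986) and Anxa2 (0.985). Itga3, an integrin subunit, read 1.91, 10.9 and 6.27 FPKM across DEN+CCl4 livers 1 to 3, against 1.20, 1.49 and 1.07 FPKM in controls. Fhl3 and Aebp1 were called higher, both with control means under 1 FPKM (0.333 and 0.220), so they too reached the test through the treated livers. The genes most like the mean of the 8 tested members were Id1 (r = 0.979), Lama5 (0.971), Vasp (0.968), Btg2 (0.968) and Tgif1 (0.964).

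The coding genes of the expression table nearest to the 3 called genes on the chromosome were looked up after the values were seen, 4 to each. Coding genes absent from it were passed over. Of the 12 found, 6 were too low to be tested. None of the 6 tested was called. On either side of Psrc1 the nearest of these were Sort1 and Celsr2. Sort1 read 1.19, 2.66 and 0.45 FPKM in DEN+CCl4 livers and 2.25, 1.51 and 1.67 FPKM in controls. Celsr2 read 0.10, 0.70 and 0.21 FPKM in DEN+CCl4 livers and 0.02, 0.09 and 0.05 FPKM in controls. Celsr2, whose gene ends 2620 bases from Psrc1, was also above all controls in each treated library, at far lower levels. Next to Cdkn1a, Srsf3 differed by 0.00 on the log2 scale (limma adjusted p = 1.00) and Rab44 read at most 0.40 FPKM in any library. Next to Phlda3, the muscle and stellate cell gene Csrp1 read 2.62, 4.51 and 3.09 FPKM in DEN+CCl4 livers and 2.10, 0.91 and 1.23 FPKM in controls (log2 fold change 0.88, limma adjusted p = 0.760), without overlap.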

How the data were processed

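Liver RNA was sequenced in 3 DEN+CCl4 and 3 control libraries, and the labels do not say whether each came from a different mouse. Libraries were made from poly(A) RNA selected out of 5 ug total RNA (RIN above 7), per the labels' protocols. The submitters' processing notes name HISAT, StringTie and GRCm38 without versions, and strand is not given in the sources used here. The authors deposited FPKM per gene with 2 decimals. The low values did not fall on steps of 1 read, so depth is unknown and no count test was run. Groups came from the sample titles, and symbols were matched to GENCODE M21. The main test was limma 3.58.1 (R 4.3.3, moderated with a mean-variance trend) on log2(FPKM + 1), for the 8528 genes that averaged 1 FPKM or more, with Benjamini-Hochberg adjustment and a threshold of 0.05. A fold change on this scale understates that of a low gene. How often the main test makes false calls when libraries differ in scale and spread, as these do, was not tested. The 10 genes, the lists and the rule for named genes (all 10 members, listed genes that passed or else the most abundant 2, Trp53, Mdm4 and the 5 most like) were chosen with earlier results of these data known. Alternatives changed the pseudocount, filter, scaling, variance model and libraries. Listed genes not analysed here were 3, Cop1, Tf and Ly6g.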

Additional observations from a re-analysis of the deposited data

How the results depend on the processing

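In all, 71 genes were called higher and 55 lower, 3 of the 10 p53 targets among the higher. With a pseudocount of 0.1 these counts were 6, 3 and 0, and with 0.01 they were 4, 0 and 0. Without a filter they were 0, 0 and 0 (540 up and 568 down at p under 0.05 before adjustment), with median-ratio scaling 0, 0 and 0 (468 and 446), with quantile normalization 0, 0 and 0 (413 and 416), and with limma without the trend 0, 0 and 0 (131 and 365). A filter at 5 FPKM gave 14 higher, 53 lower and 0 targets (Cdkn1a and Phlda3, with means under 5, were not tested), rescaling to TPM 31, 27 and 1 (Psrc1), array weights (whose estimation stopped before full convergence) 287, 134 and 0, and leaving out the mitochondrial genome 6, 3 and 0. Leaving out 1 library at a time gave 0 to 109 higher, 0 to 270 lower and 0 to 3 targets, and 4 to 6 rather than 4 targets above all controls. Without DEN+CCl4 replicate 3, limma called 0 genes higher (522 at an unadjusted p under 0.05). With median-ratio scaling as well, leaving out 1 library gave 0 to 294 higher, 0 to 362 lower, 0 to 3 targets and 5 to 8 above all controls. There, 294 higher, 362 lower, all 3 targets, 8 above all controls, 3 other p53 targets higher and 1 lower came from leaving out DEN+CCl4 replicate 1. The share of all genes above all controls was not computed with scaling or with a library left out. Gdf15 reversed to 0.14 with array weights and to 0.34 with scaling without control replicate 2. Trp53inp1 reversed to 0.22 with median-ratio scaling, 0.17 with quantile normalization, 0.16 without DEN+CCl4 replicate 3 and 0.029 without control replicate 3 (-0.42 to 0.16 over libraries left out). With scaling and a library left out it was 0.40, 0.22 and 0.033 without DEN+CCl4 replicates 1, 2 and 3 and 0.33 and 0.35 without control replicates 2 and 3. The cause of these shifts was not tested. Same-numbered libraries deviated together with r of 0.07, 0.42 and -0.15, and differently numbered ones with r of -0.37 to 0.23. These few values cannot decide whether the numbers pair the libraries, and the main test did not pair them. With a replicate block 62 genes were higher and 32 lower, and 2 targets passed, with limma adjusted p of 4.06e-05 for Psrc1, 0.0226 for Cdkn1a and 0.0620 for Phlda3.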
